A study of Homo sapiens with 14 samples.

Results

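The control tumours described here grew in mice from UMUC3 cells, an established human line of bladder cancer, and their library titles name a control short hairpin RNA. All 7 libraries of these tumours among the 14 of the series were taken, chosen by that title alone, and the 7 libraries from FASN knockdown cells were not analysed here. In 4 of the 7 the control cells had been pre-exposed to 10% cigarette smoke medium (CSM) before engraftment, and in 3 they had been kept in regular medium. All carried the genotype label control and were one cell line, RNA came from frozen xenograft tissue, and the labels give neither the hairpin sequence, the mouse strain, the age or the site of the tumours, nor whether each library stands for its own mouse. An SD here is therefore the spread of the libraries and can be partly technical. Both media were pooled, and the question was which genes, lineages and pathways these tumours expressed and which they lacked, so no contrast was fitted. The level of a gene is in TPM (transcripts per 1000000 transcripts), a measure corrected for transcript length that allows different genes to be set side by side. Unless another form is named, a level is the mean TPM ± SD over the 7 libraries (n = 7).

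Most bladder cancers arise from the urothelium, a layered epithelium whose surface umbrella cells make uroplakin plaques and KRT20 and whose basal cells make KRT5, KRT14 and TP63. In the luminal lineage GATA3, FOXA1 and PPARG drive the differentiation programme. Tumours that have lost epithelial identity instead carry vimentin, N-cadherin and the ZEB and SNAI repressors of E-cadherin, the programme called epithelial-mesenchymal transition (EMT). UMUC3 was derived from a transitional cell carcinoma, and its transcriptome is described in that order below, from lineage to growth control, cell surface, matrix and metabolism.

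The expected counts summed to between 34374093 and 45209466 per library, at which a count of 0 allows up to 3 counts, or 0.0664 to 0.0873 counts per 1000000. These limits cover counting error only. Every library correlated with every other across protein-coding genes (log2(TPM + 1), Pearson r of 0.959 to 0.992 over 21 pairs). The median r was 0.978 for the 9 pairs within a medium and 0.981 for the 12 pairs between media. Among the libraries, 2 stood apart. CSM replicate 3 had the largest part of its TPM in 7SL, the RNA of the signal recognition particle, and the fewest protein-coding genes at 1 TPM or more. CSM replicate 1 had the highest level of 69 of the 100 most variable genes, and of 48 after rescaling. A result that rests on either is given with and without it.

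Short non-coding RNAs dominated the TPM scale. The 7SL genes took 39.2 ± 11.6% of all TPM (24.8% to 55.8% over the libraries), and RN7SK, which holds back transcription elongation, took 8.44 ± 3.69%. Nuclear protein-coding genes took 38.1 ± 6.90% of TPM but 83.0 ± 3.83% of the expected counts, since TPM weights short transcripts more. RPPH1, the RNA of RNase P, was at 45913 ± 8681 TPM, and RMRP, the RNA of RNase MRP, was at 19832 ± 11289 TPM. Mitochondrially encoded genes took 0.962 ± 0.458% of TPM, and lncRNA genes took 1.56 ± 0.341%. In CSM replicate 3 7SL alone took 55.8% and protein-coding genes 25.2%, so the same share of the coding RNA read as a lower TPM there than in the other 6 libraries. Where a statement depends on this, the level was also rescaled so that the nuclear protein-coding genes of a library summed to 1000000.

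**Figure D1:**
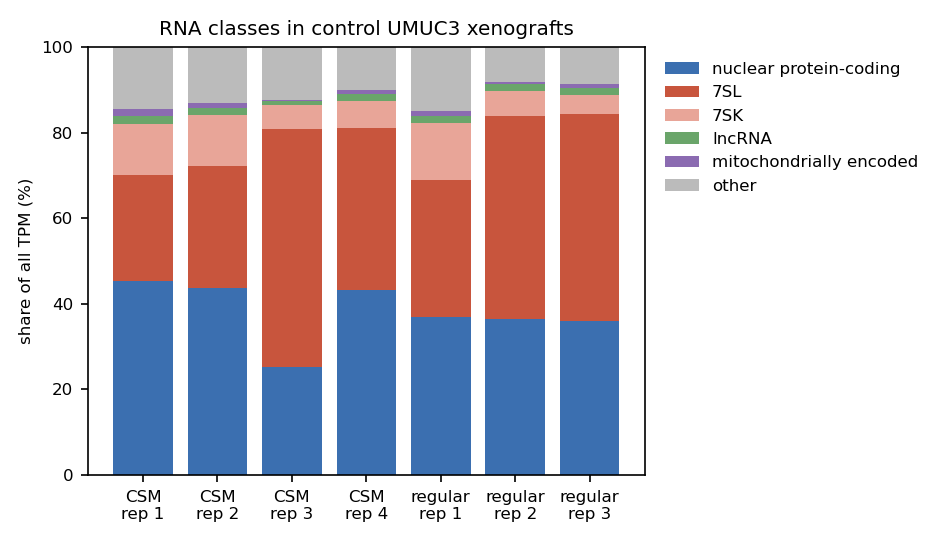
Share of all TPM (percent, vertical axis) by RNA class in each of the 7 libraries, with the 4 libraries after CSM on the left and the 3 from regular medium on the right. CSM replicate 3 has the largest 7SL part at 55.8% and the smallest protein-coding part at 25.2%, and 7SL takes at least 24.8% in every library.

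Of 19631 nuclear protein-coding genes in the tables, 11340 (57.8%) had a mean of at least 1 TPM and are called expressed. Another 5649 (28.8%) were below 0.1 TPM and are called near absent, and 1528 (7.78%) were listed at 0 in every library. Each library held between 10281 and 11544 coding genes at 1 TPM or more, and 10097 genes passed 1 TPM in every library. The median level was 11.4 TPM among expressed genes, 519 genes reached 100 TPM and 43 reached 1000 TPM. Output was concentrated in few genes: the 10 most abundant took 8.89 ± 1.58% of coding TPM, the first 100 took 30.7 ± 1.76%, and the first 1000 took 61.5 ± 1.99%.

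TMSB10, a thymosin that binds actin monomers, was the most abundant coding gene at 5201, 6324 and 10089 TPM (lowest, median and highest library). It exceeded its paralog TMSB4X, at 729 ± 422 TPM, in 7 of 7 libraries, by 4.43-fold to 24.9-fold. Translation filled most of the rest of the top of the list. Ribosomal protein genes made up 17 of the 25 most abundant coding genes, led by RPL41 (5643 ± 1387 TPM) and RPS14 (3159.7 ± 1004 TPM), and all 86 of them together took 19.3 ± 1.90% of coding TPM. The elongation factors EEF1A1 and EEF1G were at 4209 ± 1087 and 1949.5 ± 545 TPM. TPT1, the translationally controlled tumour protein, reached 2108 ± 406 TPM, and the glycolytic enzyme GAPDH reached 2378 ± 1495 TPM with its highest value, 5148 TPM, in CSM replicate 1. CANX, a chaperone of the endoplasmic reticulum, PTMS, the small acidic protein parathymosin, and ANXA2, a calcium-dependent membrane binder, completed the 25 at 1747 ± 667, 1548 ± 727 and 1502 ± 301 TPM. Ribosomal protein genes have many processed pseudogenes that can share their reads, so their single levels are uncertain.

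A pair of promoter sequences shows the ends of this range, TMSB10 at the top and the umbrella cell keratin KRT20, listed at 0 in 7 of 7 libraries. Each is the 250 bases before the gene's start, 5′ to 3′ on the strand of the gene, from RefSeq (GRCh38.p14), with capitals marking the TATA motif (TATAAA), the CAAT box (CCAAT) and the GC box (GGGCGG), or their reverse complements. TMSB10 lies at chr2:84905406-84905655 on the plus strand and KRT20 at chr17:40885243-40885492 on the minus strand.
TMSB10: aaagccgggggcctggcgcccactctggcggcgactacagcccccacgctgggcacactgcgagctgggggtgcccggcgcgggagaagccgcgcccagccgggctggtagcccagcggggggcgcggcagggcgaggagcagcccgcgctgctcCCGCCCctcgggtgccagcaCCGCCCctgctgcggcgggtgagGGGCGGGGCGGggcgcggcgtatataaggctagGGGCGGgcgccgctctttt
KRT20: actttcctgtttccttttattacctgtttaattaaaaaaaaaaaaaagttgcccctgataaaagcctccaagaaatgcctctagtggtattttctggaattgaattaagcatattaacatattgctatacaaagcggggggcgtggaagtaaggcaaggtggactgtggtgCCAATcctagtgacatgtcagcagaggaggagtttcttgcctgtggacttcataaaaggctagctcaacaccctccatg
The TMSB10 window held 5 matches to GGGCGG on both strands, overlapping ones counted, with 31 CpG pairs and 78.0% G or C. The KRT20 window held none of GGGCGG, 1 CCAAT, 2 CpG pairs and 41.2% G or C. Neither window held TATAAA. Among the windows of the same length of the 15341 coding genes with an entry in the RefSeq table, 56.6% held GGGCGG, 34.7% held CCAAT and 9.23% held TATAAA. A match of letters describes the window and is not evidence of binding.

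The luminal urothelial programme was nearly silent. Of 20 urothelial differentiation genes, 5 were expressed and 9 near absent, against 57.8% and 28.8% of all coding genes, and the median member was at 0.218 TPM. UPK3A, a uroplakin of the umbrella cell plaque, KRT20, VGLL1, a TEAD cofactor, CYP4B1, a monooxygenase of the bladder, and FABP4, a fatty acid carrier, were listed at 0 in every library. No uroplakin reached 1 TPM in the mean, the highest being UPK1B at 0.126, 0.785 and 1.02 TPM (lowest, median and highest library). UPK1A was at 0.198 ± 0.167 TPM, UPK3B at 0.238 ± 0.130 TPM and UPK2 at 0.0415 ± 0.0775 TPM. The luminal transcription factors were low but not at 0 in the mean: GATA3 was at 0.182, 0.737 and 1.27 TPM (lowest, median and highest library), and FOXA1 was at 0.205, 0.484 and 1.11 TPM (lowest, median and highest library). PPARG, the nuclear receptor that drives urothelial terminal differentiation, had 1.49 ± 0.587 TPM, and ELF3, an epithelial ETS factor of that programme, had 0.0600 ± 0.0514 TPM. The 5 expressed members were ERBB3 (3.32 ± 1.24 TPM), TBX3 (3.19 ± 1.16 TPM), TBX2 (1.53 ± 0.951 TPM), PPARG and KLF5 (1.07 ± 1.39 TPM), none of which is restricted to umbrella cells. The mean of KLF5 rested in part on CSM replicate 2, at 4.17 TPM, its median was 0.561 TPM and its mean without that library was 0.559 TPM. After rescaling, 9 of the 20 members were past 1 TPM, against 63.3% of all coding genes, with UPK1B at 1.63, GATA3 at 1.75 and FOXA1 at 1.44 rescaled TPM among those added.

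The basal and squamous list was expressed in part. Of its 22 genes, 8 (36.4%) were expressed and 7 near absent, against 57.8% and 28.8% of all coding genes. The near-absent part was thus close to that of all coding genes. CD44, the hyaluronan receptor that marks basal urothelial cells and many mesenchymal cells, was far above the rest at 184, 249 and 331 TPM (lowest, median and highest library). Short transcripts held much of that level: the 705-base CD44-218 took 31.0% and the 580-base CD44-227, annotated without a coding sequence, took 30.1%, while the 4288-base coding transcript CD44-201 took 13.2%. KRT15, a basal keratin, had 9.94, 28.6 and 37.0 TPM (lowest, median and highest library), and EGFR had 8.62, 21.6 and 34.3 TPM (lowest, median and highest library). LAMB3, a laminin chain of the epithelial basement membrane, was at 11.0 ± 3.73 TPM. Their usual companions were missing: KRT14 was at 0.0122 ± 0.0214 TPM, KRT6A at 0.0791 ± 0.111 TPM, and KRT6C and SPRR1B were listed at 0. KRT5 averaged 1.25 ± 1.13 TPM, with a median of 0.857 TPM. TP63, the master factor of basal cells, was at 6.50, 4.42, 7.02 and 2.32 TPM in the libraries after CSM and at 1.47, 0.460 and 2.19 TPM in those from regular medium. Its 4 values after CSM all lay above the other 3, by a narrow margin, but after rescaling they overlapped (lowest 5.37 after CSM, highest 6.08 from regular medium). Its level was spread over coding transcripts, with 37.5% on TP63-201, 24.8% on TP63-212 and 19.5% on TP63-202. The mean log2(TPM + 1) of the basal list exceeded that of the urothelial list by 0.81 ± 0.12 and did so in 7 of 7 libraries.

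Fewer epithelial adhesion genes than mesenchymal genes were expressed. Of 32 epithelial adhesion genes 10 were expressed and 12 near absent, whereas of 30 mesenchymal and EMT genes 26 were expressed and 4 near absent, against 57.8% expressed and 28.8% near absent among all coding genes. The mesenchymal list lay above the epithelial list by 1.76 ± 0.21 in mean log2(TPM + 1), between 1.37 in CSM replicate 3 and 2.04 in CSM replicate 4, and was higher in 7 of 7 libraries. That order rests on how many members were expressed: among members at 1 TPM or more alone, 26 mesenchymal and 10 epithelial, the difference was -0.53. After rescaling, 16 of the 32 epithelial genes and 26 of the 30 mesenchymal genes were past 1 TPM, against 63.3% of all coding genes. VIM, the mesenchymal intermediate filament, was at 522, 952 and 1265 TPM (lowest, median and highest library). The simple keratins KRT18 and KRT8, which pair with each other in simple epithelia, were kept, at 48.5, 102 and 139 TPM (lowest, median and highest library) and at 22.9, 56.4 and 68.6 TPM (lowest, median and highest library). VIM exceeded KRT18 by 6.60-fold to 11.2-fold, and KRT18 exceeded KRT8 by 1.60-fold to 2.12-fold, each in 7 of 7 libraries. KRT7, a urothelial keratin, was at 3.88 ± 2.12 TPM and KRT19 at only 0.0643 ± 0.0788 TPM.

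E-cadherin, the CDH1 product that holds epithelial cells together, was at 0.0729, 0.393 and 0.746 TPM (lowest, median and highest library). Of its mean level, 95.9% was assigned to CDH1-206, a 969-base transcript annotated without a coding sequence. The full-length 4811-base coding transcript, CDH1-201, had 0.00646 TPM. CDH2, the N-cadherin gene, was at 2.23, 15.1 and 25.1 TPM (lowest, median and highest library), above CDH1 in 7 of 7 libraries by at least 11.3-fold. Further epithelial genes were lower still. EPCAM was at 0.0289 ± 0.0456 TPM, the splicing regulators ESRP1 and ESRP2 at 0.0202 ± 0.0391 and 0.0542 ± 0.0953 TPM, the epithelial factor GRHL2 at 0.0937 ± 0.0828 TPM, and CLDN3, OVOL1 and OVOL2 were listed at 0. What remained of the list was mainly the cytoplasmic side of the junction. CTNNB1, or β-catenin, had 104 ± 18.7 TPM, CTNND1, or p120-catenin, had 58.8 ± 14.5 TPM, and TJP1, the ZO-1 scaffold, had 17.6 ± 4.67 TPM. OCLN, PKP3 and JUP, of tight junctions and desmosomes, were at 8.89 ± 2.47, 7.41 ± 3.87 and 6.95 ± 2.79 TPM.

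Among repressors of E-cadherin and other EMT factors, ZEB1 led at 10.3, 17.7 and 27.9 TPM (lowest, median and highest library). ZEB2 was at 3.23 ± 1.49 TPM and lower than ZEB1 in 7 of 7 libraries. SNAI1 had 2.42 ± 2.20 TPM and TWIST1 1.34 ± 0.709 TPM, while SNAI2 (0.0928 ± 0.118 TPM), TWIST2 (0.0253 ± 0.0565 TPM) and PRRX1 (0.00362 ± 0.00726 TPM) were near absent. ZEB1 was the most abundant of these 7 factors in the mean. Secreted and surface members of the list were abundant, with SPARC, a matricellular protein, at 111, 190.0 and 281 TPM (lowest, median and highest library), the collagen crosslinker LOXL2 at 61.6 ± 19.3 TPM and CAV1 of caveolae at 64.6 ± 24.2 TPM. FN1, fibronectin, at 10.2 ± 8.87 TPM and POSTN, periostin, at 5.46 ± 5.30 TPM were low and uneven: POSTN ran from 0.271 to 14.2 TPM. LOX, a relative of LOXL2, was near absent at 0.0130 ± 0.0139 TPM.

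**Figure D2:**
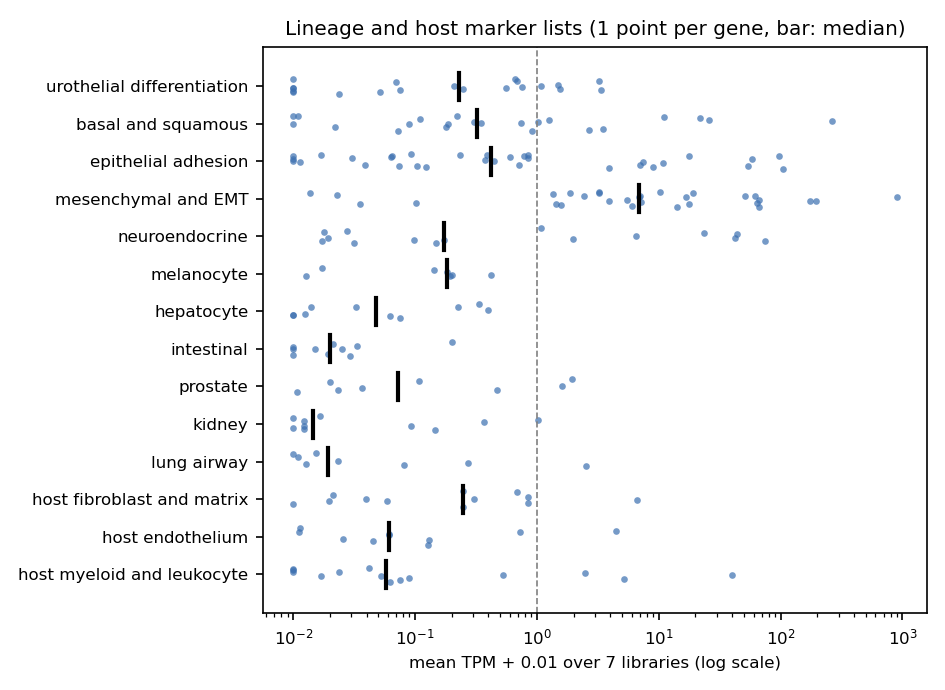
Mean TPM over the 7 libraries of every member of 14 lineage and host marker lists (horizontal axis, log scale after adding 0.01 TPM; each point is a gene, the short bar is the list's median, and the dashed line is 1 TPM). The mesenchymal list lies mostly to the right of 1 TPM with 26 of 30 members there, the urothelial list mostly to the left with 5 of 20, and lists of other tissues have few members past the line.

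Markers of other tissues were mostly absent. None of 7 melanocyte, 10 hepatocyte, 10 intestinal or 6 erythroid genes reached 1 TPM in the mean, and after rescaling 1 melanocyte, 1 hepatocyte and 1 erythroid gene did. Of 8 prostate genes 2 were expressed, and KLK3, the prostate-specific antigen, was at 0.0102 ± 0.0270 TPM. PAX2 (1.01 ± 0.692 TPM) was the only expressed gene among 10 of the kidney, and SCGB3A2 (2.54 ± 1.22 TPM) among 8 of the airway. For SCGB3A2, 2 transcripts without a coding sequence held 72.6% and 25.7% of that level. Neuroendocrine genes were mixed, with 7 of 15 expressed, against 57.8% of all coding genes. ENO2, neuron-specific enolase, had 74.3 ± 50.6 TPM, UCHL1, a neuronal ubiquitin hydrolase, had 44.0 ± 8.81 TPM, TUBB3, a neuronal tubulin, had 42.4 ± 10.2 TPM, PEG10 had 23.6 ± 8.61 TPM and synaptophysin (SYP) had 6.55 ± 1.15 TPM. Of the markers CHGA, SYP and INSM1, SYP alone was expressed: CHGA was at 0.0174 ± 0.0460 TPM, INSM1 at 0.00716 ± 0.0165 TPM, with the neurogenic factor NEUROD1 at 0.0213 ± 0.0124 TPM.

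The tables hold human transcripts only, so mouse stroma could appear only where its reads were assigned to similar human sequences. Human-named stromal markers were taken as a check of the label, and most of them, though not all, were under 1 TPM. Among all coding genes 57.8% were at 1 TPM or more. Of 12 fibroblast and matrix genes 1 was expressed, FBLN1 at 6.56 ± 2.15 TPM, while COL1A1, COL3A1, DCN and LUM were at 0.834 ± 0.358, 0.0491 ± 0.0384, 0.235 ± 0.269 and 0.0298 ± 0.0476 TPM. Of 10 endothelial genes 1 was expressed, TIE1 at 4.44 ± 1.90 TPM, with PECAM1 at 0.117 ± 0.0735 TPM, CDH5 at 0.121 ± 0.269 TPM and VWF at 0.0513 ± 0.0339 TPM. Of 14 myeloid and leukocyte genes 3 were expressed, CD68, a lysosomal membrane protein that is not confined to macrophages (39.8 ± 18.1 TPM), ADGRE1 (5.13 ± 0.676 TPM) and LYZ (2.49 ± 1.19 TPM). The defining leukocyte gene PTPRC was at 0.0523 ± 0.0295 TPM, CSF1R at 0.0426 ± 0.0637 TPM, and CD3E, NKG7 and TYROBP were listed at 0. None of 5 adipocyte genes and none of 6 skeletal muscle genes was expressed. After rescaling, 4 fibroblast, 2 endothelial, 4 myeloid and leukocyte and 1 adipocyte gene were past 1 TPM. The summed level of the fibroblast list was 5.64 to 14.5 TPM in the libraries after CSM and 7.86 to 9.79 TPM in those from regular medium, and the myeloid sum, most of it CD68, was 21.8 to 77.1 TPM and 31.5 to 57.4 TPM in the same order. In bulk tissue fewer cells of a type and less RNA per cell cannot be told apart.

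HOX genes carry positional identity and are switched on in order along each cluster as body segments form. In paralog groups 3 to 9, 18 of 22 genes were expressed, against 1 of 12 in groups 10 to 13 and 1 of 5 in groups 1 and 2. Among all coding genes 57.8% were expressed. The HOXB cluster was the fullest with 8 of 10 genes expressed. HOXB2 (19.4 ± 8.14 TPM), HOXB8 (13.1 ± 5.28 TPM), HOXB7 (12.9 ± 4.64 TPM) and HOXB3 (11.5 ± 3.74 TPM) were its highest members, and HOXB13 was near absent at 0.0980 ± 0.0658 TPM. In HOXA the level stopped between HOXA6 (1.19 ± 0.251 TPM) and HOXA9 (0.00834 ± 0.0183 TPM), with HOXA7 between them at 0.595 ± 0.482 TPM. HOXD9 was at 6.67 ± 1.85 TPM whereas its neighbour HOXD10 was listed at 0. HOXC13 (2.12 ± 0.772 TPM) was the exception among the last groups. Among other lineage factors 3 of 6 GATA genes were expressed, led by GATA2 (5.24 ± 2.11 TPM), and FOXD1 (28.4 ± 10.3 TPM) and SOX9 (20.8 ± 6.91 TPM) stood high in their families.

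Proliferation genes were expressed without exception, against 57.8% of all coding genes. All 20 reached 1 TPM in every library. MKI67, the proliferation antigen, was at 18.8, 45.3 and 74.9 TPM (lowest, median and highest library), MCM7, of the replicative helicase, had 100.3 ± 19.3 TPM, TOP2A had 30.8 ± 6.01 TPM and CDC20, an activator of anaphase, had 57.2 ± 21.6 TPM. On the driving side of G1, CCND1, the D-type cyclin that activates CDK4 and CDK6, was at 219, 447 and 638 TPM (lowest, median and highest library). It exceeded CCND2 by at least 7.11-fold in 7 of 7 libraries. CDK4 (146 ± 31.3 TPM) likewise exceeded CDK6 (12.0 ± 3.52 TPM) in every library, and MYC was at 47.7, 99.6 and 153 TPM (lowest, median and highest library). MYCN was near absent (0.00529 ± 0.00921 TPM) and MYCL low (0.371 ± 0.190 TPM).

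The brakes of the cycle, and the genes that act on them, were uneven. MDM2, a ubiquitin ligase and not itself a brake, was at 36.01 ± 24.8 TPM, with 91.4 TPM in CSM replicate 1. Without that library its mean was 26.8 ± 4.48 TPM (n = 6). RB1, the retinoblastoma protein, was at 25.8, 25.7, 21.8 and 27.9 TPM after CSM and at 18.3, 21.2 and 20.2 TPM from regular medium, the 4 values after CSM all above the other 3. After rescaling the media overlapped, with a lowest value of 56.9 after CSM and a highest of 58.2 rescaled TPM from regular medium. CDKN2C (33.2 ± 8.84 TPM), CDKN1B (27.6 ± 8.51 TPM) and CDKN1A (29.05 ± 33.7 TPM) were present. CDKN2A, which encodes the CDK4 inhibitor p16 and the MDM2 inhibitor p14ARF, was listed at 0 with no count in any library, so each allows at most 3 counts. CDKN2B, which encodes p15, had 7 expected counts over all 7 libraries.

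Low levels extended to the neighbours of CDKN2A on chromosome 9 (GRCh38, chr9:21967753-21995301, minus strand, GENCODE 29). MTAP, which salvages methionine from the polyamine pathway and lies next to it, was at 0.122, 0.177 and 0.383 TPM (lowest, median and highest library), so it stayed under 1 TPM in every library. Further out, DMRTA1, ELAVL2 and IZUMO3 on one side were at 0.00834 ± 0.00958, 0.200 ± 0.113 and 0.0381 ± 0.0843 TPM and IFNE on the other at 0.407 ± 0.263 TPM. The nearest neighbours that were expressed were KLHL9 (8.90 ± 1.65 TPM), TUSC1 (14.1 ± 3.49 TPM) and CAAP1 (12.6 ± 3.73 TPM), so the low stretch had expressed genes on both sides. Low genes were not confined to that stretch. Beyond KLHL9, IFNB1 (0.0321 ± 0.0742 TPM) and HACD4 (0.0461 ± 0.0196 TPM) were near absent too, as were 28.8% of all coding genes. These neighbours were named after their values had been seen, and the interferon alpha and omega genes between KLHL9 and MTAP were left out because they are near-identical copies.

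**Figure D3:**
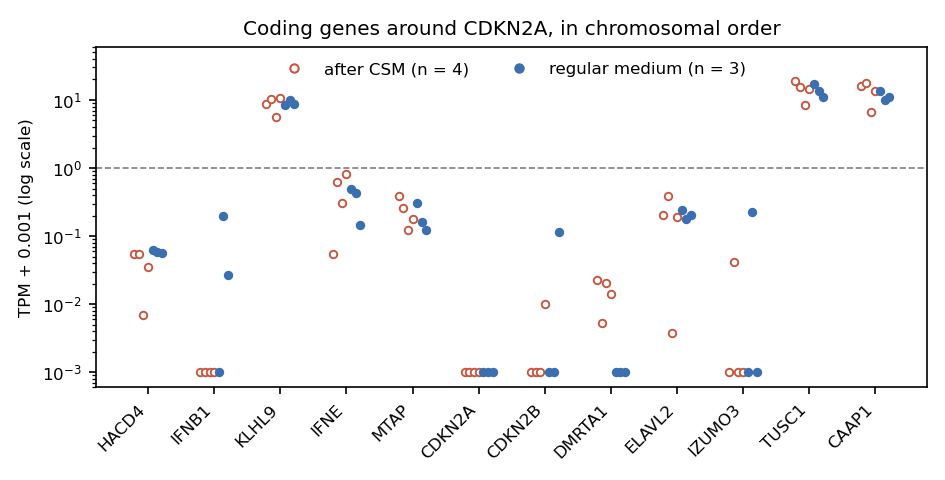
TPM in each of the 7 libraries (vertical axis, log scale after adding 0.001 TPM) for the coding genes around CDKN2A in their order along the chromosome, not to genomic scale; open circles are libraries after CSM and filled circles those from regular medium, and the dashed line is 1 TPM. The low genes around CDKN2A are flanked by KLHL9, TUSC1 and CAAP1, all above 1 TPM in every library. Beyond KLHL9, HACD4 and IFNB1 are low again.

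Of 22 genes often mutated in bladder cancer, 20 were expressed, against 57.8% of all coding genes, and ELF3 was among the members that were not. The chromatin regulators KMT2D (76.0 ± 36.5 TPM), KMT2C (46.7 ± 12.6 TPM), ARID1A (29.8 ± 13.1 TPM) and KDM6A (6.11 ± 2.23 TPM) were all present. HRAS (20.5 ± 4.46 TPM) and NRAS (18.96 ± 3.21 TPM) overlapped, with HRAS higher in 3 of 7 libraries. PIK3CA was at 6.58 ± 1.47 TPM, NFE2L2 at 21.5 ± 6.39 TPM and FBXW7 at 14.0 ± 4.97 TPM. All 12 telomerase and telomere genes were expressed, including TERT, the catalytic subunit that is silent in most normal tissue, at 0.891, 3.93 and 5.24 TPM (lowest, median and highest library).

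Of 32 receptor tyrosine kinases 17 were expressed, near the 57.8% of all coding genes, and AXL, EPHA2, FGFR1 and MET were the highest. AXL, the receptor for GAS6, was at 47.8, 69.2 and 89.3 TPM (lowest, median and highest library), EPHA2, an ephrin receptor, at 31.6, 61.2 and 81.0 TPM (lowest, median and highest library), FGFR1 at 21.1, 60.9 and 68.2 TPM (lowest, median and highest library) and MET, the receptor of hepatocyte growth factor, at 28.8, 38.2 and 48.8 TPM (lowest, median and highest library). EGFR and ERBB2 were lower and alike, EGFR being higher in 3 of 7 libraries, with ERBB2 at 21.1 ± 5.74 TPM. AXL and MET each exceeded EGFR in 7 of 7 libraries. FGFR3, the receptor of luminal papillary tumours, was at 0.273, 1.01 and 2.18 TPM (lowest, median and highest library), below FGFR1 in every library by at least 23.7-fold. KIT, ALK, RET, the 3 NTRK genes and KDR were all under 1 TPM.

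Of 31 growth factor genes 20 were expressed, near the 57.8% of all coding genes, among them ligands for some of these receptors. GAS6 was at 18.6 ± 6.71 TPM, VEGFA, the angiogenic factor, at 75.7 ± 57.5 TPM, PDGFC at 24.5 ± 5.06 TPM and KITLG at 24.4 ± 10.8 TPM. Among EGFR family ligands, NRG1 (10.2 ± 2.80 TPM), EREG (7.96 ± 2.63 TPM) and HBEGF (4.94 ± 2.74 TPM) were expressed while AREG (0.185 ± 0.120 TPM) and EGF (0.00282 ± 0.00433 TPM) were not. HGF, the ligand of MET, was at 0.360 ± 0.427 TPM. FGF5 (9.36 ± 4.01 TPM), FGF2 (4.33 ± 1.11 TPM) and FGF1 (3.10 ± 1.51 TPM) were the listed FGFs past 1 TPM, and TGFB1 was at 30.1 ± 7.54 TPM.

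Surface proteins used as drug targets ranged from near absent to high. NECTIN4, the target of enfortumab vedotin, was at 0.00559, 0.0427 and 0.124 TPM (lowest, median and highest library). It did not reach 1 TPM in any library. By contrast NT5E, the ectoenzyme CD73, was at 77.9, 124 and 216 TPM (lowest, median and highest library). CD276, or B7-H3, had 15.9 ± 5.03 TPM, CD47 13.3 ± 2.56 TPM and PVR 15.4 ± 5.35 TPM. CD274, or PD-L1, was just past the threshold at 1.48 ± 0.670 TPM, with 0.528 TPM in its lowest library. FOLR1, MSLN and CEACAM5 were near absent and VTCN1 was listed at 0.

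**Figure D4:**
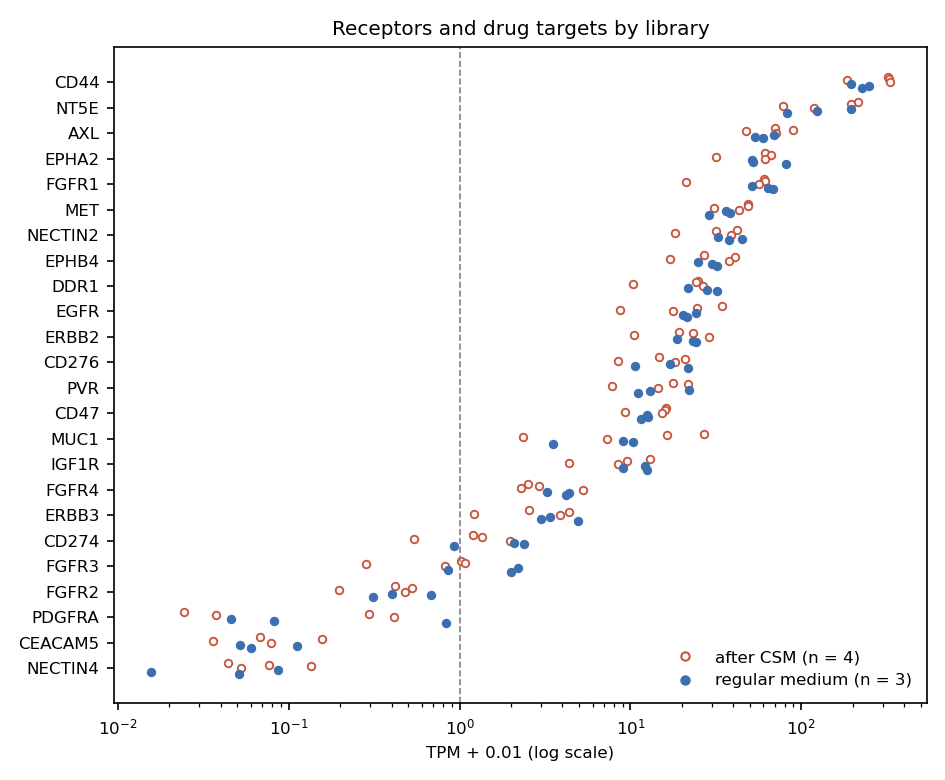
TPM in each library (horizontal axis, log scale after adding 0.01 TPM) of selected receptor tyrosine kinases and surface proteins, ordered by mean. Some of them are not named in the text. Open circles are the 4 libraries after CSM and filled circles the 3 from regular medium, and the dashed line is 1 TPM. CD44, NT5E, AXL, EPHA2 and FGFR1 are never under 21.1 TPM, while NECTIN4 and CEACAM5 lie below 1 TPM in every library.

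Of 21 antigen presentation genes 15 (71.4%) were expressed and 3 near absent, against 57.8% and 28.8% of all coding genes. Every listed class I gene was expressed, and class II genes were not. HLA-C was at 237, 359.5 and 467 TPM (lowest, median and highest library), HLA-B at 213 ± 66.6 TPM and B2M, their shared light chain, at 257 ± 62.2 TPM. These genes differ by allele from the reference, so their levels may carry an error that the SD does not show. TAP1 (21.1 ± 5.18 TPM), TAP2 (28.7 ± 3.93 TPM), TAPBP (88.5 ± 26.2 TPM) and the immunoproteasome subunits PSMB8 (21.1 ± 4.79 TPM) and PSMB9 (19.3 ± 4.01 TPM) were present too. The class II gene HLA-DRA was at 0.0304 ± 0.0282 TPM and their activator CIITA at 0.260 ± 0.108 TPM.

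Interferon signalling genes were expressed in 22 of 25 cases, against 57.8% of all coding genes. The interferon genes IFNB1 and IFNA1 were near absent in the mean, at 0.0321 ± 0.0742 and 0.0178 ± 0.0471 TPM. IFNB1 was highest in regular medium replicate 2, at 0.199 TPM on 7 expected counts. IFNE, another interferon gene, was low but not near absent at 0.407 ± 0.263 TPM. The cytosolic sensors RIGI (25.6 ± 13.7 TPM), IFIH1 (10.0 ± 5.76 TPM), CGAS (9.84 ± 2.01 TPM) and the adaptor STING1 (6.36 ± 1.76 TPM) were present. ISG15 ran from 38.1 to 192 TPM, and IFIT2 from 6.87 to 49.0 TPM, so interferon-stimulated genes varied between libraries, with the highest IFIT1, IFIT2 and IFIT3 in regular medium replicate 2. Of 25 cytokines and chemokines 12 (48%) were expressed, against the same 57.8%. MIF was the highest at 359 ± 195 TPM, followed by IL32 (22.4 ± 5.88 TPM), CCL5 (21.1 ± 10.6 TPM), CSF1 (19.7 ± 6.22 TPM), LIF (12.7 ± 9.36 TPM) and CCL2 (12.4 ± 5.54 TPM). IL6, IL1B, IL1A and CXCL10 were near absent.

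Integrins, the receptors that bind cells to matrix, were expressed in 11 of 22 cases, near the 57.8% of all coding genes. ITGB1, the shared β1 chain, was at 262, 459 and 587 TPM (lowest, median and highest library), and its laminin-binding partner ITGA3 was at 37.5, 106 and 162 TPM (lowest, median and highest library), above ITGA6 (26.7 ± 8.53 TPM) in 7 of 7 libraries. ITGB5 (79.0 ± 14.0 TPM) and ITGAV (21.6 ± 3.32 TPM) form a vitronectin receptor. ITGB4, which with ITGA6 anchors basal epithelial cells in hemidesmosomes, was near absent at 0.0995 ± 0.123 TPM. Basement membrane chains were made, with LAMB2 (64.9 ± 18.8 TPM), LAMA5 (51.6 ± 19.1 TPM), LAMC1 (38.4 ± 9.93 TPM) and AGRN (47.7 ± 17.2 TPM) highest. Of the fibrillar collagens, COL1A1, COL1A2 and COL3A1 were under 1 TPM at 0.834 ± 0.358, 0.00980 ± 0.0104 and 0.0491 ± 0.0384 TPM, while COL5A1 (3.24 ± 1.02 TPM) and COL27A1 (6.16 ± 2.72 TPM) were expressed. The main collagen was COL6A2 (28.9 ± 10.6 TPM). Its partner COL6A1 was expressed at 5.74 ± 2.75 TPM, and its partner COL6A3 was at 0.292 ± 0.129 TPM.

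Of 28 matrix proteases and inhibitors 19 (67.9%) were expressed, against 57.8% of all coding genes. PLAU, urokinase, was at 165, 207 and 376 TPM (lowest, median and highest library) together with its receptor PLAUR (59.0 ± 11.3 TPM). It exceeded PLAT, the tissue-type activator, by at least 16.4-fold in every library. MMP14, a membrane protease that activates MMP2, was at 87.4, 137 and 174 TPM (lowest, median and highest library) and exceeded MMP2 (13.6 ± 4.83 TPM) in 7 of 7 libraries. MMP9 (1.87 ± 0.866 TPM) and MMP1 (1.84 ± 1.20 TPM) were low, and MMP7 and MMP13 were near absent. Among tissue inhibitors TIMP1 (139 ± 62.2 TPM) and TIMP2 (50.4 ± 14.1 TPM) were high, TIMP3 was near absent (0.00596 ± 0.00508 TPM) and TIMP4 was listed at 0. THBS1, a matrix protein that inhibits angiogenesis, was also near absent at 0.0383 ± 0.0562 TPM.

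Of 33 glycolysis genes 23 (69.7%) were expressed, against 57.8% of all coding genes. GAPDH, ENO1 (844 ± 189 TPM), ALDOA (622 ± 343 TPM) and PKM (537 ± 62.2 TPM) were among the most abundant enzymes. HK2 (36.7 ± 18.0 TPM) exceeded HK1 (4.20 ± 2.48 TPM) by at least 7.00-fold in every library. LDHB (608 ± 214 TPM) and LDHA (480.0 ± 177 TPM) overlapped, LDHB being higher in 4 of 7. SLC2A1, the glucose transporter GLUT1, was at 20.9, 68.4 and 145 TPM (lowest, median and highest library). The liver forms PKLR and SLC2A2 were near absent or at 0, as were the testis forms PGK2, LDHC and GAPDHS. Levels of this pathway were highest in CSM replicate 1 for 14 of its 23 expressed genes, and so were those of 13 of the 23 lipid genes described next. The same library was the highest for 30.5% of all genes at 10 TPM or more.

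All 23 lipid synthesis and oxidation genes were expressed, against 57.8% of all coding genes. FASN, fatty acid synthase and the gene targeted in the other arm of the study, was at 28.2, 51.7 and 67.1 TPM (lowest, median and highest library) in these control tumours (chr17:82078333-82098332, minus strand). ACLY, which makes cytosolic acetyl-CoA, had 51.2 ± 10.2 TPM, ACACA, which makes malonyl-CoA, had 34.2 ± 7.20 TPM, and SCD, which desaturates the product, had 68.3 ± 19.6 TPM. SCD exceeded SCD5 by at least 6.40-fold in 7 of 7 libraries. SREBF2 (40.9 ± 18.1 TPM) exceeded SREBF1 (25.04 ± 11.1 TPM) in every library, though by as little as 1.16-fold. CPT1A, the gate of fatty acid entry into mitochondria, was at 53.6 ± 12.1 TPM, close to FASN, and above CPT1B in 7 of 7.

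Among other metabolic genes, ASS1, argininosuccinate synthase, whose loss makes cells need arginine, was at 0.345, 1.06 and 2.01 TPM (lowest, median and highest library). Its partner ASL was at 8.60 ± 3.26 TPM. Serine synthesis was present, with PHGDH at 28.6 ± 6.63 TPM, PSAT1 at 12.5 ± 1.28 TPM and PSPH at 8.12 ± 2.17 TPM, and NNMT, which methylates nicotinamide, was high at 128 ± 58.8 TPM.

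Genes that handle smoke chemicals were looked at since 4 of the tumours came from cells pre-exposed to CSM. AHR, the receptor of aromatic hydrocarbons, was itself low at 0.206, 0.586 and 1.13 TPM (lowest, median and highest library), and its targets CYP1A1 (0.0472 ± 0.0347 TPM) and CYP1B1 (0.0201 ± 0.0132 TPM) were near absent in both media. CYP1A1 averaged 0.0219 ± 0.0189 TPM after CSM and 0.0809 ± 0.00941 TPM in regular medium (SD, n = 4 and 3), without overlap but with all 7 values under 0.1 TPM. Among 41 detoxification and redox genes 22 were expressed, against 57.8% of all coding genes. TXNRD1 was at 261, 524 and 766 TPM (lowest, median and highest library), NQO1 at 109 ± 25.2 TPM, GSTP1 at 257 ± 158 TPM and GCLM at 10.7 ± 1.10 TPM. GSTM3 was at 15.3, 17.3, 14.9 and 19.2 TPM after CSM and at 13.4, 11.3 and 11.0 TPM from regular medium, again without overlap, but the media overlapped after rescaling (lowest 33.8 after CSM, highest 36.3 rescaled TPM from regular medium). GSTM1, GSTA1 and NAT2 were near absent or at 0, and SLC7A11 was at 1.22 ± 0.405 TPM.

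Genes that set the response to chemotherapy were measured next. ERCC1 (97.5 ± 23.8 TPM) and ERCC2 (14.4 ± 6.16 TPM), of nucleotide excision repair, were expressed with all 27 DNA repair genes, in every library. SLFN11, which blocks stressed replication forks, was at 25.7 ± 6.66 TPM. SLC29A1, which imports gemcitabine, had 29.5 ± 7.09 TPM and DCK, which activates it, had 6.65 ± 0.781 TPM, while CDA, which inactivates it, was near absent at 0.0388 ± 0.0733 TPM. The drug pumps ABCB1 (0.0984 ± 0.152 TPM) and ABCG2 (0.00885 ± 0.00756 TPM) were near absent and ABCC1 (16.5 ± 3.94 TPM) and ABCC3 (21.1 ± 7.61 TPM) expressed. Metallothionein was carried by MT2A (1295 ± 835 TPM) and MT1X (173 ± 236 TPM). Without CSM replicate 1 the mean of MT1X was 84.4 ± 37.0 TPM. Of 11 metallothionein genes 6 were listed at 0, against 7.78% of all coding genes. Of 28 apoptosis genes 25 were expressed, against 57.8% of all coding genes. MCL1 (65.1 ± 22.8 TPM) exceeded BCL2L1 (32.0 ± 9.65 TPM), which exceeded BCL2 (3.00 ± 0.830 TPM), in 7 of 7 libraries.

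Hippo effectors stood out among signalling genes. YAP1 (67.6 ± 19.9 TPM) and WWTR1, or TAZ (61.2 ± 30.0 TPM), overlapped, YAP1 being higher in 4 of 7 libraries. Their targets CCN1 (102 ± 42.6 TPM), CCN2 (68.1 ± 28.8 TPM) and AMOTL2 (50.2 ± 14.4 TPM) were all high. WNT5B (40.5 ± 13.2 TPM) was the main Wnt ligand and NOTCH2 (33.3 ± 7.79 TPM) the main Notch receptor. Among 29 nuclear receptors 20 were expressed, against 57.8% of all coding genes. NR1H2 (63.8 ± 15.1 TPM), NR3C1, the glucocorticoid receptor (39.1 ± 7.97 TPM), and RARG (24.6 ± 6.06 TPM) were the highest. ESR1 (0.0210 ± 0.0282 TPM), ESR2 (0.0644 ± 0.0657 TPM) and PGR (0.114 ± 0.120 TPM) were all under 1 TPM.

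Germline genes were on in a narrow set. Of 30 cancer-testis genes 10 were expressed and 17 near absent, against 57.8% and 28.8% of all coding genes. MAGEA4 was at 32.5, 46.8 and 64.2 TPM (lowest, median and highest library), MAGEA10 at 28.5 ± 6.16 TPM and MAGEC2 at 34.5 ± 7.82 TPM. MAGEA6 (43.0 ± 6.10 TPM) and MAGEA3 (13.6 ± 1.41 TPM), and the SPANX genes led by SPANXB1 (83.5 ± 45.7 TPM), are near-identical copies whose reads can be split, so their single levels are uncertain. MAGEA1, CTAG1B, GAGE1, SSX2 and CT83 were all under 1 TPM. PRAME was at 1.54, 2.42, 2.09 and 1.86 TPM after CSM and 3.98, 3.25 and 3.89 TPM from regular medium, without overlap. Of 18 germ cell and stem factors 8 were expressed, against 57.8% of all coding genes. They included HMGA1 (694 ± 242 TPM), HMGA2 (30.5 ± 18.3 TPM), IGF2BP2 (43.4 ± 18.4 TPM) and IGF2BP3 (15.7 ± 3.92 TPM). LIN28A, LIN28B, NANOG and SOX2 were under 1 TPM. H19, an imprinted lncRNA, ranged from 7.45 to 153 TPM.

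Among lncRNA genes 1864 of 19268 had a mean of at least 1 TPM. MALAT1, of nuclear speckles, was the highest at 802, 2214 and 3053 TPM (lowest, median and highest library). NEAT1, the scaffold of paraspeckles, ran from 42.8 to 536 TPM. SNHG29 (593 ± 106 TPM), GAS5 (219.7 ± 53.3 TPM), ZFAS1 (209 ± 54.7 TPM) and SNHG32 (183 ± 39.2 TPM) host small nucleolar RNAs. CYTOR was at 107 ± 19.6 TPM and LINC00632, the host of the circular RNA CDR1-AS, at 108 ± 76.1 TPM. The remaining 2 of the 10 highest lncRNA genes have no symbol in the tables.

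In TPM, most of the most variable genes were at their highest in 1 library, CSM replicate 1. Among the 6166 coding genes at 10 TPM or more the median coefficient of variation was 28.5%, and 21.7% after rescaling. Of the 15 most variable, 13 had their highest value in CSM replicate 1. PER1, a circadian and glucocorticoid-responsive gene, was at 214 TPM there and at 4.44 to 18.8 TPM in the other 6 libraries. DEPP1, a FOXO target, was at 273 TPM there and at most 41.0 TPM elsewhere. The pattern took in DUSP1 (170 TPM against at most 35.1 TPM elsewhere), IER3 (173 against 39.8 TPM), BHLHE40 (176 against 48.3 TPM), TSC22D3 (45.9 against 8.43 TPM), NR4A1 (38.7 against 8.46 TPM), CDKN1A (104 against 27.0 TPM), BBC3 (40.5 against 10.9 TPM), SLC2A3 (46.0 against 11.3 TPM) and ANGPTL4 (357 against 105 TPM). Several of these are immediate early genes or glucocorticoid targets by background knowledge. Without CSM replicate 1 the mean of PER1 was 13.7 ± 5.73 TPM, that of DUSP1 25.8 ± 6.68 TPM and that of MT1X 84.4 ± 37.0 TPM (n = 6). CSM replicate 1 was the highest library for 30.5% of all 6166 genes, against 69 of the 100 most variable, or 48 of 100 in rescaled TPM. TFPI2, an inhibitor of matrix serine proteases, was an exception, with 50.8 TPM in CSM replicate 3 and a mean of 6.57 TPM without it. The other exception was BOLA2, with its highest value, 45.9 TPM, in regular medium replicate 1. RPL36A-HNRNPH2 was at 236 TPM in CSM replicate 1 but at 216 TPM in regular medium replicate 1. Both share sequence with near-identical or overlapping genes, and their levels are uncertain.

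**Figure D5:**
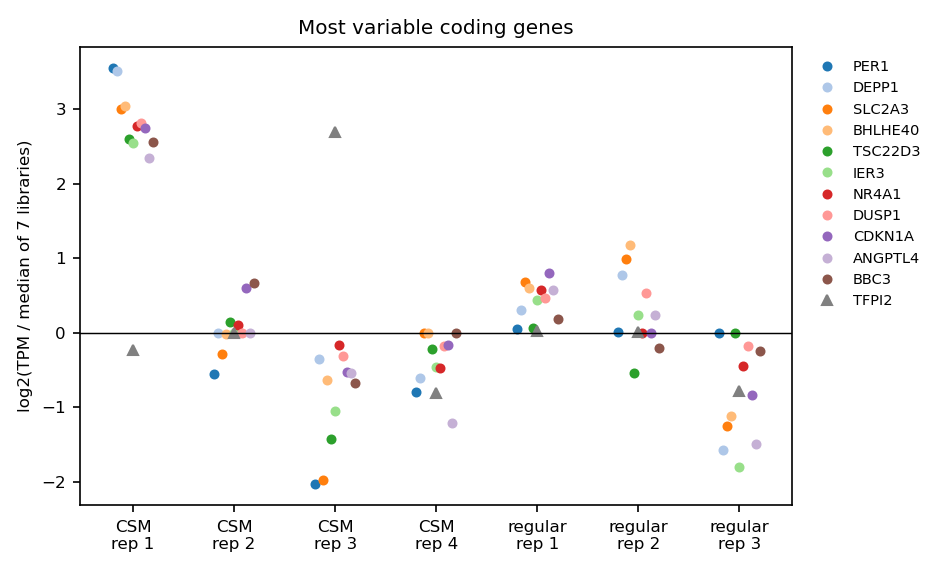
Level in each library divided by the median of the 7 (vertical axis, log2 scale) of 11 stress and early response genes among the 15 most variable coding genes and of TFPI2 (grey triangles), by library, with the 4 libraries after CSM on the left and the 3 from regular medium on the right. All 11 genes are highest in CSM replicate 1, and TFPI2 is highest in CSM replicate 3.

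In TPM, few genes separated the media. Of the 11340 expressed genes 56 (0.494%) had all 4 libraries after CSM above all 3 from regular medium and 47 (0.414%) had them all below. After rescaling, the counts were 88 (0.776%) and 375 (3.31%), so both the number of such genes and the split between directions depend on the scale. Among the 533 expressed genes on the lists, 4 lay above without overlap (TP63, TGFBI, RB1 and GSTM3) and 3 below (COL5A1 and PRAME among them), shares near those of all expressed genes. After rescaling all 4 that lay above overlapped, the 3 below still did not, and 5 list genes lay above and 25 below. TGFBI, a matrix protein induced by TGF-β, was at 7.89, 7.03, 9.47 and 9.51 TPM after CSM and 6.76, 6.05 and 3.00 TPM from regular medium. COL5A1 was at 3.52, 2.92, 1.23 and 3.03 TPM after CSM and 3.81, 4.48 and 3.66 TPM from regular medium. No test was made of these orders.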

How the data were processed

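Total RNA from frozen xenograft tissue, purified with a column kit per the labels' protocols, was sequenced in each of the 7 control libraries. The submitters' processing notes list FastQC, cutadapt, Salmon and the build GRCh38. Tool versions and the transcript annotation: not given in the sources used here. Per the file headers, each deposited table gives a TPM value, the unit in which Salmon corrects for transcript length and depth, for every transcript. The deposited tables also give an estimated number of reads per transcript, in expected counts, per the file headers. The tables list human transcripts only.

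Both values were summed to genes by gene ID (Python 3.11.15, pandas 2.3.3, numpy 2.4.6, matplotlib 3.10.9), and the summing and rescaling were tested on simulated data. Expected counts served for depth, for shares of reads and for a floor of 3 counts, and no count model was fitted. A gene at a mean of 1 TPM or more is called expressed and one below 0.1 TPM near absent. Log2 values used a pseudocount of 1 TPM. Rescaled TPM divides each nuclear protein-coding gene by the sum of all such genes in its library, times 1000000. Promoter sequences came from RefSeq, and gene order and coordinates from GENCODE 29 (GRCh38).

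No test between groups was made, since the question was the pooled baseline. Genes could be named if they belonged to the gene lists or families, or were among the 25 highest coding genes, the 10 highest lncRNA genes or the 15 most variable coding genes at 10 TPM or more. The most abundant non-coding genes and the neighbours of CDKN2A were added after their values were seen. The gene lists and the choice of these libraries were made with earlier results of these data known. Alternatives were other thresholds and pseudocounts, rescaling, shares of counts, medians, each medium alone, expressed members alone and each library left out. The FASN knockdown libraries were not analysed here, and some genes of the lists are not reported here.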

Additional observations from a re-analysis of the deposited data

Results flagged for a closer look

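Of 264 named genes at a mean of 1 TPM or more, 39 (14.8%) had 1 library set apart from the other 6, by a gap that, as a part of the whole range, passed the 95% critical value of Dixon's ratio for 7 values. So did 2 of 10 other values tested. Chance alone sets about 1 in 20 such groups apart, and genes of 1 library are not independent of each other. The named genes also include some picked for being among the 15 most variable in these same libraries. The 14.8% therefore cannot be compared with the chance rate. After rescaling to the nuclear protein-coding genes, 23 of the 39 kept the same library apart. No test of the reason was made.

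CSM replicate 1 held the highest value of 16 of these genes, and 14 of the 16 stayed apart after rescaling. In that library PER1, a clock gene, stood at 214 TPM, DEPP1, a FOXO target, at 273 TPM, and ANGPTL4, an inhibitor of lipoprotein lipase, at 357 TPM. The early response genes DUSP1, IER3, NR4A1 and KLF6 were at 170.1, 173, 38.7 and 176 TPM there. The transcription factor BHLHE40 was at 176 TPM and the glucocorticoid target TSC22D3 at 45.9 TPM. CDKN1A, a brake of the cell cycle, MDM2, a ubiquitin ligase, and BBC3, an activator of apoptosis, were at 104, 91.4 and 40.5 TPM. MT1X, a metallothionein, was at 702 TPM, SLC2A3, the transporter GLUT3, at 46.0 TPM, SREBF1, a regulator of lipid synthesis, at 48.7 TPM and the lncRNA SNHG29 at 805 TPM.

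CSM replicate 3 held the lowest value of 13 genes, and 7SL took 55.8% of its TPM. Its low values were 19.4 TPM for AMOTL2, 29.2 TPM for YAP1, 21.1 TPM for FGFR1, 11.6 TPM for RARG and 3.91 TPM for HOXB3. Matrix and protease genes among them were COL6A2 (5.97 TPM), LAMA5 (13.3 TPM), TIMP2 (19.8 TPM) and PLAUR (35.1 TPM). B2M was at 134 TPM, CPT1A at 29.2 TPM, KMT2C at 21.1 TPM and PIK3CA at 3.56 TPM. The same library had the lowest lncRNA share, 0.877% of TPM, and the lowest number of protein-coding genes at 1 TPM or more, 10281. In contrast TFPI2 was highest there, at 50.8 TPM. After rescaling, 2 of the 14 genes with CSM replicate 3 apart stayed so.

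Single genes stood apart in 3 other libraries. In CSM replicate 2 the highest values were 4.17 TPM for KLF5, 18.1 TPM for WNT7B, 2.48 TPM for PAX2, 3.68 TPM for MMP9 and 44.1 TPM for SLC29A1. In regular medium replicate 1 they were 10.7 TPM for HBEGF and 6.90 TPM for SNAI1. In regular medium replicate 2 the interferon-responsive genes IFIH1 and IFIT1 reached 22.3 and 33.1 TPM.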

How the results depend on the processing

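The count of 11340 expressed coding genes became 12114 at a threshold of 0.5 TPM, 10403 at 2 TPM and 12424 after rescaling, and 11267 to 11418 with 1 library left out. As shares of expected counts in place of TPM, coding genes took 83.0%, 7SL 8.14%, 7SK 1.93%, lncRNA genes 3.52% and other genes 2.51%. With 1 library left out the shares of TPM ran from 36.9% to 40.3% for coding genes, 36.5% to 41.6% for 7SL, 7.65% to 9.11% for 7SK, 1.49% to 1.68% for lncRNA, 0.868% to 1.08% for mitochondrially encoded and 11.1% to 12.3% for other genes. The mesenchymal minus epithelial difference was 2.22 after rescaling, 2.78 with a pseudocount of 0.1 TPM, and -0.53, the opposite sign, among members at 1 TPM or more, a choice that keeps 10 of 32 epithelial and 26 of 30 mesenchymal genes. Leaving out 1 library gave 1.72 to 1.83. The basal minus urothelial difference was 0.98 after rescaling, 1.20 with a pseudocount of 0.1 TPM and 1.80 among members at 1 TPM or more, and 0.78 to 0.84 with 1 library left out. The median correlation of libraries was 0.950 over expressed genes alone. The number of genes without overlap between media was 463 after rescaling, 88 above and 375 below, and 45 at a mean of 10 TPM or more, 33 above and 12 below. Of 44 gene lists, the number of expressed members moved by over 1.5 times in 8 after rescaling, in 4 at 0.5 TPM and in 3 at 2 TPM. Of 380 named genes, 326 moved by more than 1 SD after rescaling, all upward, since rescaling raises every level above 0. None did when a single library was left out, but leaving out 1 of 7 values cannot move a mean that far. Neither outcome therefore measures how stable a gene was. By ratio, the means of 14 of the 264 at 1 TPM or more moved by over 1.5 times, as did those of 48 of the 92 between 0 and 1 TPM. Without CSM replicate 1 ANGPTL4 was at 60.1, BBC3 at 6.92, BHLHE40 at 24.5, CDKN1A at 16.6, DEPP1 at 22.8, DUSP1 at 25.8, IER3 at 24.7, MT1X at 84.4, NR4A1 at 5.59, PER1 at 13.7, SLC2A3 at 5.79 and TSC22D3 at 6.41 TPM. KLF5 and TFPI2 are given above without CSM replicates 2 and 3. No paired analysis was possible because no contrast between groups was fitted. Levels near the floor of 3 counts, mouse stroma and the separate origin of the replicates are the limits of these values.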

Other observations

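Some gene families beyond the lineage lists were carried by few members. Of 23 cadherins 9 were expressed, against 57.8% of all coding genes, among them 4 best known from the brain. CDH12 was at 4.47, 9.35 and 15.5 TPM (lowest, median and highest library), CDH8 at 6.69 ± 2.65 TPM, CDH18 at 3.97 ± 1.77 TPM and CDH10 at 2.82 ± 1.44 TPM. Their relatives CDH7, CDH9 and CDH22 were under 1 TPM and CDH20 was listed at 0, so the members named were chosen after their values were seen. CDH2 was the highest of the family. PAX6, a regulator of eye and brain development, was at 1.78, 4.35 and 6.25 TPM (lowest, median and highest library), and it led the 9 PAX genes. The homeobox factors SIX5 (10.4 ± 3.03 TPM) and SIX4 (4.33 ± 1.60 TPM) were expressed. SOX12 (36.7 ± 11.8 TPM) exceeded SOX9 in the mean, and TBX20, a factor of heart development, stood at 1.08, 1.48 and 2.21 TPM (lowest, median and highest library). Of 19 Wnt ligands 6 were expressed, again below the 57.8% of all coding genes. WNT7B at 8.09 ± 4.68 TPM and WNT10B at 4.01 ± 1.42 TPM came after WNT5B.

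Families of the epithelial surface were thinner. Of 24 claudins, the strand proteins of tight junctions, 2 were expressed and 17 near absent, against 57.8% and 28.8% of all coding genes. The 2 were CLDN12 at 8.41 ± 1.74 TPM and CLDN15 at 3.54 ± 1.48 TPM. Of 55 type I and type II keratin genes 8 were expressed and 14 were listed at 0, against 57.8% and 7.78% of all coding genes. KRT18 alone made 51.2% of the summed keratin TPM. KRT32, a keratin of the hair cuticle, was among the 8 at 0.948, 1.89 and 2.52 TPM (lowest, median and highest library). Annexins and S100 proteins are calcium binders that often pair. Of 12 annexins 7 (58.3%) were expressed, near the 57.8% of all coding genes, and ANXA2 made 81.6% of their summed TPM. Of 20 S100 genes 7 (35%) were expressed and 9 near absent, against 57.8% and 28.8% of all coding genes. The ANXA2 partner S100A10 led them at 161 ± 46.4 TPM, ahead of S100A16 at 109.7 ± 34.9 TPM. S100A4, often used as a mesenchymal marker, was at only 1.41 ± 0.563 TPM. Of 18 aldehyde dehydrogenases, which clear reactive aldehydes, 11 (61.1%) were expressed, near the 57.8% of all coding genes. ALDH3A2 (55.3 ± 12.6 TPM) and ALDH7A1 (44.5 ± 12.2 TPM) were the highest. KLF6, a zinc finger factor, was the highest of 18 KLF genes at 19.97, 60.5 and 176 TPM (lowest, median and highest library).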
